A study of Mus musculus with 4 samples.

Results

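The genes described here are 10 genes of water and glycerol handling in mouse liver, 7 aquaporins (Aqp1, Aqp3, Aqp4, Aqp7, Aqp8, Aqp9 and Aqp11) and 3 enzymes of glycerol metabolism (Gyk, Gpd1 and Gpd2), out of 48709 genes counted. They were chosen by name, around Aqp7, which was selected on its higher read count in the DDI2-KO livers. For that reason the difference in Aqp7 is given as a description without a test, and the other members were picked with earlier results of the same libraries known. Untreated livers of adult C57BL/6 mice were sequenced as 4 mRNA libraries, 2 WT and 2 DDI2-KO, in a study of what the protease DDI2 controls in the liver. All mice carried the floxed Ddi2 allele, the WT littermates without Cre recombinase and the DDI2-KO mice with Cre under the albumin promoter, which is active in hepatocytes, so the other cells of the liver keep the gene. The study describes the 2 libraries of a group as biological replicates and used mice of both sexes. With 2 livers per group, the spread of a single gene is poorly known. The edgeR p-values rest on the spread between the livers of a group, moderated by a trend shared over all tested genes.

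Aquaporins are membrane channels for water. Some of them, the aquaglyceroporins Aqp3, Aqp7 and Aqp9, also pass glycerol. Glycerol that fat tissue releases through Aqp7 enters the hepatocyte through Aqp9, is phosphorylated by glycerol kinase (Gyk) and is oxidised by the cytosolic Gpd1 or the mitochondrial Gpd2 to a triose phosphate, from which the liver makes glucose. Glycerol 3-phosphate is also the backbone for triglyceride synthesis. Aqp8, the other channel typical of hepatocytes, lies in canalicular, vesicular and inner mitochondrial membranes and passes water, hydrogen peroxide and ammonia.

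Reads that fell on genes numbered 34109018 and 31532247 in WT, 25582344 and 22501208 in the DDI2-KO livers, so the WT libraries were deeper. A floor of 3 reads was worth 0.0880 to 0.133 CPM, the unit of reads relative to library size after TMM scaling in edgeR. Reads on Ddi2 itself numbered 4749 and 3812 in WT, 4068 and 3777 in the DDI2-KO livers. This whole-gene count was not lower in the DDI2-KO livers (log2 fold change 0.28, standard error, SE, 0.17, edgeR adjusted p = 0.349). It does not separate the deleted part of Ddi2 from the rest, so this count does not check the genotype labels, and the DDI2-KO livers below are the livers so labelled. The liver label was checked with 8 hepatocyte markers, led by Alb, which summed to between 154900 and 186800 CPM in every library and held 0 genes past an adjusted p of 0.05 (0 with an unadjusted p under 0.05, and 0 under DESeq2, limma-voom and limma-trend). Reads that fell on no annotated gene were 5.11% and 4.70% of the gene reads in WT against 2.53% and 3.65% in the DDI2-KO livers. Reads with several places in the genome were 65.81% and 51.83% in WT against 49.21% and 47.27%. Ambiguous reads were 2.496% and 2.537% in WT against 3.485% and 3.656%. The part of depth and of these reads in the results below was not tested. In bulk liver, fewer cells of a type and less RNA per cell cannot be told apart.

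Aqp7 (ENSMUSG00000028427, chr4:41033074-41048139, minus strand, GRCm38), the glycerol channel best known from adipocytes, was counted with 0 and 2 reads in WT, 23 and 24 in the DDI2-KO livers. Both WT libraries were under the floor of 3 reads and both DDI2-KO livers were well above it. In scaled units this was 0 and 0.0647 CPM against 0.889 and 1.04 CPM. The pooled level was 31.0-fold higher in the DDI2-KO livers, with an exact 95% interval from 8.13 to 264. The interval shows how little 2 WT reads fix the size of the fold, covers counting error only and is no test of a difference on which the gene was selected. Without WT replicate 1 the ratio was 14.9 (interval from 3.89 to 126). Without WT replicate 2 the WT count was 0, and set against 3 reads in the remaining WT library the ratio was at least 10.8. It was 33.7 without DDI2-KO replicate 1 and 28.7 without DDI2-KO replicate 2, both on the same 2 WT reads. Even so, Aqp7 remained a scarce transcript. In RPKM, the CPM divided by the length of the merged exons in kilobases and the scale on which genes are compared here, it reached 0.342 ± 0.0389 (SD, n = 2), and it ranked 11610 of the 13675 tested genes with a length in the DDI2-KO livers. In WT it ranked 13672, a place set largely by the filter on low counts. Aqp7 passed that filter through the DDI2-KO livers, and genes as scarce in both groups were not ranked. Other genes hold 3.27% of the 50-base stretches of its longest transcript.

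None of the tested genes beside Aqp7 passed the test. Nfx1, the nearest protein-coding gene on one side, 7081 bases away, had a log2 fold change of 0.09 (SE 0.20, edgeR adjusted p = 0.826). Chmp5, the next on that side, had 0.47 (SE 0.15, adjusted p = 0.123). On the other side lies Aqp3, 44583 bases away and described with the aquaporins below, and then Nol6, with a log2 fold change of 0.00 (SE 0.18, adjusted p = 0.997).

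Adipocytes, in which Aqp7 is abundant, left little trace in any library. Of 10 listed adipocyte markers, Lep, Retn, Cfd and Plin1 had 0 reads in every library, and Adipoq had 2 and 2 reads in WT, 1 and 2 in the DDI2-KO livers. The list, led by Lipe, summed to 27.2 and 24.5 CPM in WT and to 20.2 and 16.7 CPM in the DDI2-KO livers. Fabp4 and Lipe made up most of this sum and were lower in the DDI2-KO livers, while Plin4 (35 and 29 reads in WT, 59 and 79 in the DDI2-KO livers) and Cidec (9 and 8 against 29 and 19) were higher. Cidec and Fabp4 are also on the list of PPAR target genes described below, and Lipe is on that of glycerol release. The part of adipocytes in the Aqp7 difference was not tested. Of the 4 markers tested, 0 passed in edgeR (4 had an unadjusted p under 0.05, 2 in each direction), 1 passed under DESeq2 (Plin4, higher) and 0 under limma. The kidney, another site of Aqp7, was represented by 6 markers, of which Umod, Slc34a1, Slc12a1 and Kap had 0 reads throughout. Their sum, almost all from Lrp2, was 0.0595 and 0.162 CPM in WT against 0.348 and 0.348 CPM in the DDI2-KO livers, and its part in the Aqp7 difference was not tested. Of 6 skeletal muscle markers, led by Mylpf, Acta1, Ckm and Myh4 had 0 reads throughout and the sum ran from 0.653 to 0.966 CPM over all libraries, with overlapping groups.

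The promoter of Aqp7 is printed together with those of Aqp8 and Aqp9, the channels it is compared with, because the members differ in which letters they hold in front of the start site. The windows, from RefSeq on GRCm38.p6, hold 300 bases, most of them upstream of an annotated start, and capitals mark any match on either strand to the motifs searched. These were AGGTCA (the nuclear receptor hexamer, TGACCT when read on the other strand), TGACNNNGC (the core of the antioxidant response element), TGTTTTC (the heptamer of insulin response sequences) and TATAAA (the TATA box). Shown are the second of the 2 Aqp7 starts (chr4:41047913-41048212, minus strand), the Aqp8 start (chr7:123462044-123462343, plus strand) and the second of the 2 Aqp9 starts (chr9:71162584-71162883, minus strand).
Aqp7: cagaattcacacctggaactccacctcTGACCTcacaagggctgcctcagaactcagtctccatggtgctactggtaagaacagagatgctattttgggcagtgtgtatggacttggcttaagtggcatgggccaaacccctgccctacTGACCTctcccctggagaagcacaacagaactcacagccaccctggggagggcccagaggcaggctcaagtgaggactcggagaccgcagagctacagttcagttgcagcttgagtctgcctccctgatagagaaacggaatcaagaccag
Aqp8: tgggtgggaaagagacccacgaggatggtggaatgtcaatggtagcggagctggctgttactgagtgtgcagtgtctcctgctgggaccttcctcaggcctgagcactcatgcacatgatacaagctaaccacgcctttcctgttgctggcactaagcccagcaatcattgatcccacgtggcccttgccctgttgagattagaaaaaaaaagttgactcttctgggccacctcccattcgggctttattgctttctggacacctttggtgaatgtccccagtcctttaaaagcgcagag
Aqp9: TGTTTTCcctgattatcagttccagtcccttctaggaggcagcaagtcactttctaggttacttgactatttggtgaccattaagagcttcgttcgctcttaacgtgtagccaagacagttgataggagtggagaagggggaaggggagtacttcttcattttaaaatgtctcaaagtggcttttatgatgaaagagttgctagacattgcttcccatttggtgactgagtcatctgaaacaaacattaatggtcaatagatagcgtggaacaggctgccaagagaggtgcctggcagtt
The Aqp7 window held the receptor hexamer on the minus strand at -223 and -101 relative to the start, and the window of the other start, which overlaps it, held the first of these matches at -49. The Aqp9 window held the insulin heptamer at -250, and the Aqp8 window held none of the motifs. Windows were at hand for 8 of the 10 members, not for Aqp4 and Gpd1. Among the others, Aqp11 had a receptor hexamer at -230, Gyk an antioxidant core match at -18 and Aqp3 a TATA box at -29, while Aqp1, Gpd2 and the first Aqp9 start had no match. Of all 32851 RefSeq windows of this length, 16.3% held the receptor hexamer, 12.4% the antioxidant core, 7.35% the insulin heptamer and 13.6% the TATA box. The receptor hexamer read on the other strand shares its first letters with the antioxidant core, and a match is a description of letters, not a binding site.

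Aqp8 (ENSMUSG00000030762, chr7:123462291-123468004) was the aquaporin that rose past the test. It had 121 and 116 CPM in WT and 354 and 260 CPM in the DDI2-KO livers, from 4081 and 3578 reads and from 9170 and 5971 reads. The groups did not overlap, and the DDI2-KO livers spread more widely than the WT libraries. Mean levels of 119 ± 3.94 and 307 ± 66.8 CPM (SD, n = 2 each) made a 2.59-fold difference. The log2 fold change was 1.37 (SE 0.20, edgeR adjusted p = 0.0240 over the 13699 genes tested). Without WT replicate 1 the adjusted p was 0.0516, and it stayed under 0.05 in the other 13 of 14 alternative settings.

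Aqp9 (ENSMUSG00000032204, chr9:71110659-71168682, minus strand), the main glycerol channel of the hepatocyte, was higher on average without passing the test. It had 452 and 326 CPM in WT and 607 and 588 CPM in the DDI2-KO livers. The groups did not overlap, but the WT libraries lay further apart than those labelled DDI2-KO. The means were 389 ± 89.1 CPM (SD, n = 2) and 598 ± 13.5 CPM (SD, n = 2), and the log2 fold change was 0.62 (SE 0.20, edgeR adjusted p = 0.124). In the fit without a filter on low counts the adjusted p was 0.0405, and over all alternative settings it ran up to 0.480.

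Aqp1 (ENSMUSG00000004655, chr6:55336432-55348555), a water channel of endothelium, bile duct epithelium and red cells, had 151 and 108 CPM in WT and 232 and 248 CPM in the DDI2-KO livers. The groups did not overlap. The log2 fold change of 0.89 (SE 0.20, edgeR adjusted p = 0.0613) was short of the threshold, which it passed with no low-count filter (0.00154), under DESeq2 (0.00297) and in 1 further setting given in the closing section. Markers of the cell types that carry Aqp1 summed to overlapping or lower levels in the DDI2-KO livers, except those of the bile duct, which were slightly higher, and their part in the Aqp1 difference was not tested. The 12 endothelial markers, led by Clec4g, summed to 549 and 509 CPM in WT and 519 and 482 CPM in the DDI2-KO livers, with 1 gene called, Stab2, which was lower (log2 fold change -1.10, edgeR adjusted p = 0.0288, 0.109 without WT replicate 1). The 9 bile duct markers, led by Spp1, summed to 102 and 103 CPM against 113 and 112 CPM, and 0 of the 7 tested passed in edgeR (1 had an unadjusted p under 0.05) or under DESeq2 and limma. The 6 red cell markers, led by Hbb-bs, summed to 101 and 195 CPM in WT and 73.6 and 61.9 CPM in the DDI2-KO livers. All 4 that were tested had a log2 fold change below 0, 3 of them with an unadjusted p under 0.05 in edgeR. In edgeR 1 was called lower, under DESeq2 3 (Hba-a1, Hba-a2 and Hbb-bs), and under limma-voom and limma-trend 1 (Hba-a1). Hba-a1 was lower (log2 fold change -1.94, edgeR adjusted p = 0.0338), a call lost without either DDI2-KO liver (adjusted p up to 0.213) and uncertain because reads that match its near-identical copy Hba-a2 as well can be missing from both counts. Stab2 and Hba-a1 are named because they passed. Among the 12 endothelial markers, 0 were higher and 3 lower at an unadjusted p under 0.05 in edgeR. DESeq2, limma-voom and limma-trend each called 1 of the 12, Stab2, lower. The 8 macrophage markers, led by Cd5l, summed to 790 and 680.5 CPM in WT and 917 and 763 CPM in the DDI2-KO livers, with 0 called in edgeR (2 with an unadjusted p under 0.05, 1 in each direction), 1 under DESeq2 (Adgre1, higher) and 0 under limma.

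**Figure D1:**
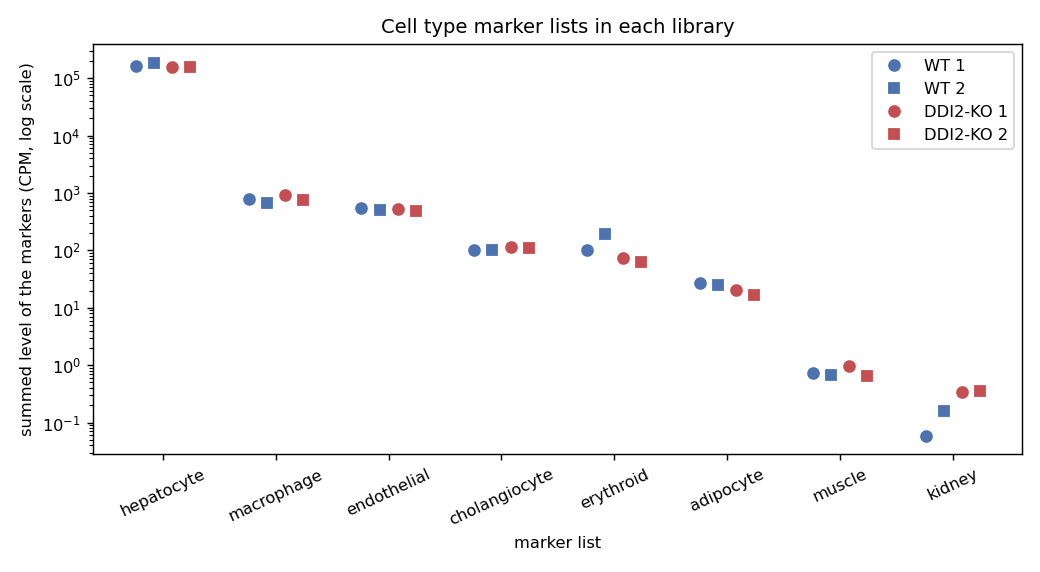
Summed level of each cell type marker list (CPM, log scale) in each library, with WT in blue and DDI2-KO livers in red, circles for replicate 1 and squares for replicate 2. Hepatocyte markers dominate in all 4 libraries, between 154900 and 186800 CPM, adipocyte and red cell markers are lower in both DDI2-KO livers, and kidney and muscle markers stay under 1 CPM.

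The remaining aquaporins lay well below Aqp1, Aqp8 and Aqp9. Aqp11 (ENSMUSG00000042797, chr7:97724006-97738289, minus strand), an aquaporin of the endoplasmic reticulum, had 25.3 and 26.3 CPM in WT and 22.5 and 20.9 CPM in the DDI2-KO livers. The groups did not overlap, and the DDI2-KO livers were lower, with a log2 fold change of -0.25 (SE 0.16, edgeR adjusted p = 0.382). Aqp4 (ENSMUSG00000024411), the water channel of glia and muscle, had 1.49 and 3.59 CPM in WT and 1.43 and 1.13 CPM in the DDI2-KO livers. WT replicate 2 stood above the other libraries, which lay close together, and the log2 fold change of -0.98 (SE 0.46, edgeR adjusted p = 0.240) fell short of the test and came to -0.21 without that library. Aqp3 (ENSMUSG00000028435, chr4:41092722-41098183, minus strand), an aquaglyceroporin of epithelia, was counted with 0 and 1 reads in WT, 2 and 1 in the DDI2-KO livers, under the floor everywhere, and no fold is given. Of the aquaporins outside the members, Mip, Aqp2, Aqp6 and Aqp12 had 0 reads in every library and Aqp5 had 1 read in 1 WT library.

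**Figure D2:**
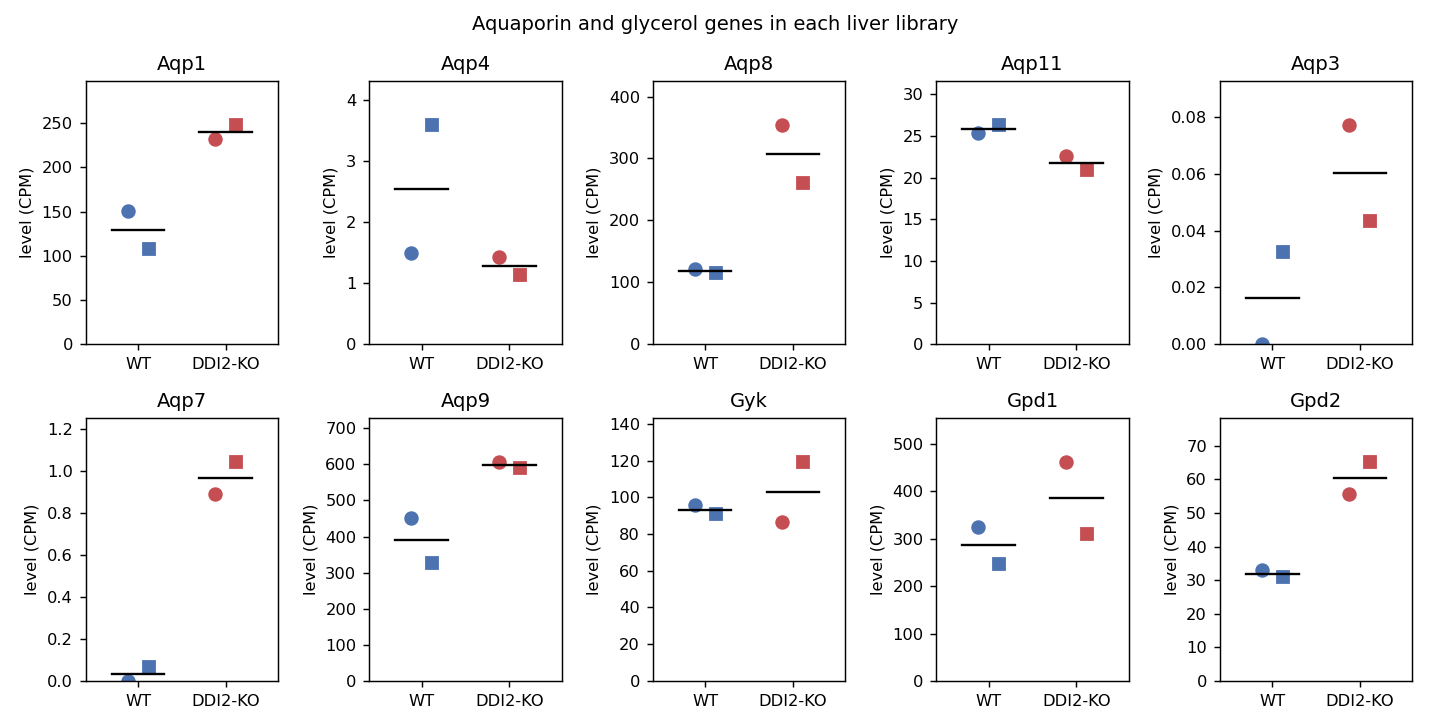
Level of each of the 10 members (CPM, linear axis from 0, a scale of its own per gene) in each library, with circles for replicate 1, squares for replicate 2 and a black line at the group mean of 2 libraries. The DDI2-KO livers (red) lie above WT (blue) for Aqp1, Aqp7, Aqp8, Aqp9 and Gpd2 and below for Aqp4 and Aqp11, while Gyk and Gpd1 overlap and Aqp3 is under 3 reads throughout.

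Taken per length, the aquaporins of these livers were almost entirely Aqp9, Aqp8 and Aqp1, which made up 98.3% to 99.4% of the summed RPKM of all 12 aquaporin genes. The sum was 246 and 196 in WT and 462 and 404 in the DDI2-KO livers, 1.96-fold higher on average, and the groups did not overlap. In both WT libraries the order was Aqp9 (94.0 ± 21.5 RPKM, SD, n = 2), Aqp8 (75.0 ± 2.49) and Aqp1 (49.3 ± 11.6). The gap between Aqp9 and Aqp8 in WT was smaller than the SD of Aqp9. In both DDI2-KO livers, Aqp8 (194 ± 42.2 RPKM) came first, ahead of Aqp9 (144 ± 3.26) and Aqp1 (91.4 ± 4.31). Aqp11 followed at 2.74 ± 0.0753 RPKM in WT and 2.31 ± 0.120 RPKM in the DDI2-KO livers, then Aqp4 at 0.407 ± 0.239 and 0.205 ± 0.0338 RPKM. Aqp7 and Aqp3 were under the floor in WT, and in the DDI2-KO livers Aqp7 stood above Aqp4.

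The share of Aqp8 in the summed aquaporin level was 31.2% and 37.3% in WT and 48.5% and 40.7% in the DDI2-KO livers. The share of Aqp9 was 44.3% and 40.1% in WT and 31.7% and 35.2% in the DDI2-KO livers. These shares did not overlap between groups, in opposite directions, whereas that of Aqp1 did (23.3% and 20.9% against 19.1% and 23.4%). Shares of one sum are tied, so beside a similar Aqp1 share a higher Aqp8 share leaves a lower Aqp9 share. The level of Aqp9 itself was 1.54-fold higher on average in the DDI2-KO livers. Aqp7 made up 0.0680% and 0.0915% of the sum in the DDI2-KO livers. The ratio of Aqp8 to Aqp9 per length was 0.703 and 0.930 in WT and 1.53 and 1.16 in the DDI2-KO livers, 1.64-fold higher in geometric mean (two-sided exact permutation test, p = 0.333, the smallest that 2 against 2 libraries allow). With the length of the longest annotated transcript in place of merged exons, Aqp9 led in both groups, at 141 against 79.8 RPKM for Aqp8 in WT and 216 against 206 RPKM in the DDI2-KO livers, so which of them comes first depends on the length used.

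**Figure D3:**
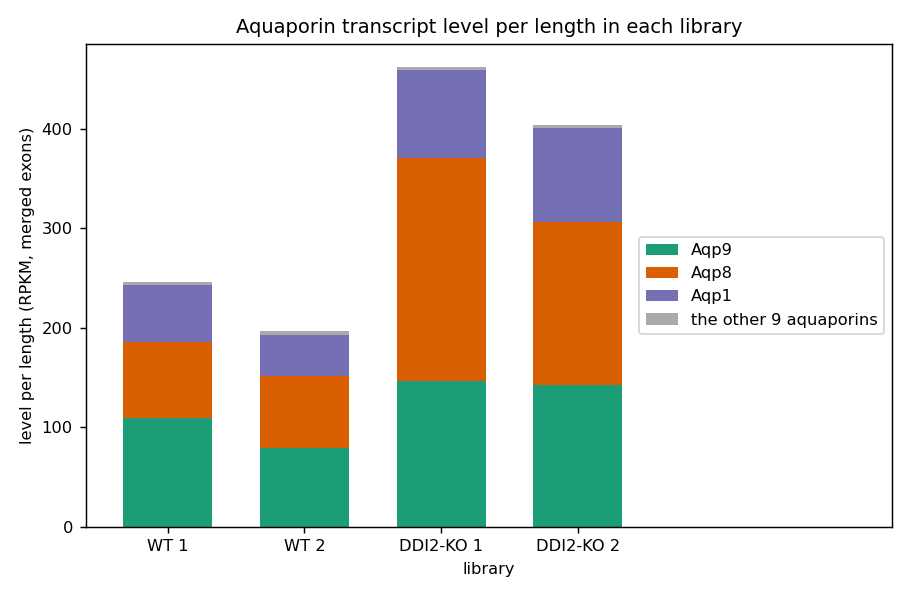
Level per length (RPKM on merged exons, stacked from 0) of Aqp9, Aqp8, Aqp1 and the other 9 aquaporin genes in each of the 4 libraries. The stacks reach 246 and 196 RPKM in WT and 462 and 404 RPKM in the DDI2-KO livers, the Aqp8 segment grows most, and the grey segment of the other aquaporins is barely visible.

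Among the enzymes that take glycerol onward, only Gpd2 passed the test. Gpd2 (ENSMUSG00000026827, chr2:57237635-57370719), the mitochondrial glycerol-3-phosphate dehydrogenase, had 33.0 and 30.8 CPM in WT and 55.6 and 65.3 CPM in the DDI2-KO livers. The groups did not overlap, and the gap between them exceeded the spread within either. Its log2 fold change was 0.92 (SE 0.16, edgeR adjusted p = 0.0393), a 1.89-fold difference between means of 31.9 ± 1.56 and 60.4 ± 6.84 CPM (SD, n = 2). The call was lost in 5 of 14 alternative settings, with adjusted p-values of 0.0523 from limma-voom, 0.0553 from limma-trend, 0.0520 from edgeR with robust estimation turned off, 0.132 without WT replicate 1 and 0.144 without WT replicate 2. An antisense gene, A930012O16Rik, overlaps 487 bases of its exons but had only 13 to 16 reads per library.

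Gpd1 (ENSMUSG00000023019, chr15:99717515-99725005), the cytosolic enzyme, had 325 and 247 CPM in WT and 463 and 310.0 CPM in the DDI2-KO livers. The groups overlapped, and the log2 fold change was 0.43 (SE 0.24, edgeR adjusted p = 0.317). Gyk (annotated as Gk, ENSMUSG00000025059, chrX:85701937-85776819, minus strand) had 95.8 and 90.7 CPM in WT and 86.3 and 119 CPM in the DDI2-KO livers. These values overlapped too, and the log2 fold change of 0.14 (SE 0.19, edgeR adjusted p = 0.707) turned to -0.10 without DDI2-KO replicate 2. A difference in Gyk was not detectable with these libraries. Per length, Gpd1 was the more abundant dehydrogenase in every library, 21.8 and 17.7 times the level of Gpd2 in WT and 18.4 and 10.5 times in the DDI2-KO livers. These ratios overlapped between the groups.

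Leaving Aqp7 aside, 8 members were tested, 2 were called higher (Aqp8 and Gpd2) and 0 lower in edgeR. Over all 13699 tested genes, 2.53% were called, 1.33% higher and 1.2% lower. At an unadjusted p under 0.05 the count was 4 of 8 (Aqp1, Aqp8, Aqp9 and Gpd2), against 3216 of all genes. DESeq2 called 3 of the 8 higher (Aqp1, Aqp8 and Gpd2), against 940 of all genes. Under limma-voom and limma-trend 1 was higher (Aqp8), against 136 and 139 of all genes. None of the 8 was called lower under DESeq2, limma-voom or limma-trend. The groups did not overlap in 6 of the 8, but this held for 55.7% of all tested genes. The median log2 fold change of the 8 was 0.53, and that of all tested genes -0.015. Aqp3 did not pass the filter on low counts. Aqp7 passed it through the DDI2-KO livers.

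The steps around the members were described with a wider list of 41 glycerol and glycerolipid genes, of which 38 were tested. In edgeR 3 were called higher and 0 lower, with 0 called lower under DESeq2 or limma. Over all 13699 tested genes, edgeR called 2.53%. At an unadjusted p under 0.05 in edgeR, 15 of the list were higher and 2 lower, against 3216 of all tested genes. A log2 fold change above 0 was found for 29, against 48.7% of all tested genes. The median of the 38 was 0.43, against -0.015 for all tested genes. The groups did not overlap in 60.5%, near the 55.7% of all genes.

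Of 13 genes listed for glycerol release from lipids, enzymes and their regulators, 2 were called higher and 0 lower in edgeR. Over all tested genes, edgeR called 2.53%. At an unadjusted p under 0.05, 5 were higher and 1 lower, against 3216 of all tested genes. DESeq2 called 4 higher (Abhd5, Ces1d, Gde1 and Pnpla3) and 0 lower, against 940 of all tested genes. Under limma-voom and limma-trend, only Ces1d was called. Ces1d, a carboxylesterase that hydrolyses triglyceride in the hepatocyte, had 23426 and 19359 reads in WT, 35626 and 35451 in the DDI2-KO livers (log2 fold change 1.14, SE 0.18, edgeR adjusted p = 0.0295, 0.0556 without WT replicate 2). Its groups did not overlap, and other Ces1 genes hold 1.28% of its stretches of 50 bases. Gde1, a glycerophosphodiester phosphodiesterase that frees glycerol 3-phosphate, had 638 and 660 reads in WT, 936 and 786 in the DDI2-KO livers (log2 fold change 0.80, SE 0.16, adjusted p = 0.0470), but lost its call in 8 of 14 alternative settings, without WT replicate 1, WT replicate 2 or DDI2-KO replicate 1 among them, where the adjusted p reached 0.260. Abhd5, the activator of adipose triglyceride lipase, came to 0.93 (adjusted p = 0.0570), and the lipase itself, Pnpla2, to -0.07 (adjusted p = 0.871). Hormone-sensitive lipase, Lipe, came to -0.81 (adjusted p = 0.176).

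The steps from triose phosphate to glucose held 1 gene called higher of 7 and 0 lower in edgeR, which called 2.53% of all tested genes. At an unadjusted p under 0.05, 4 were higher and 0 lower, against 3216 of all tested genes. DESeq2 called 2 higher (G6pc and Slc37a4) and 0 lower, against 940 of all tested genes. Under limma-voom and limma-trend, only G6pc was called. G6pc, the catalytic subunit of glucose-6-phosphatase and the last step of glucose release, had 4017 and 2209 reads in WT, 6714 and 9399 in the DDI2-KO livers. Its groups did not overlap, and the log2 fold change was 1.81 (SE 0.31, edgeR adjusted p = 0.0429). The call was lost without DDI2-KO replicate 1 or DDI2-KO replicate 2, with an adjusted p of up to 0.0947. The glucose-6-phosphate carrier Slc37a4 came to 0.69 (adjusted p = 0.0660) and Pck1, which enters gluconeogenesis above the point where glycerol joins, to -0.16 (adjusted p = 0.748).

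In glycerolipid synthesis, 0 of 15 tested genes passed in edgeR, DESeq2 or limma (5 higher and 1 lower at an unadjusted p under 0.05). The most abundant, Dgat2, which adds the last fatty acid to triglyceride, had a log2 fold change of 0.44 (edgeR adjusted p = 0.243), and Gpam, the first acyltransferase on glycerol 3-phosphate, of -0.01 (adjusted p = 0.989). Mogat1, a monoacylglycerol acyltransferase, was scarce, with 5 and 2 reads in WT, 27 and 13 in the DDI2-KO livers (adjusted p = 0.0596). Of the other enzymes at glycerol and glycerol 3-phosphate, 3 were tested and 0 passed in edgeR, DESeq2 or limma (1 at an unadjusted p under 0.05). Tkfc, which phosphorylates dihydroxyacetone and glyceraldehyde, came to 0.67 (adjusted p = 0.133) and the Gpd1 paralog Gpd1l to 0.08 (adjusted p = 0.850). Gk2, a second glycerol kinase, had 0 reads in every library.

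**Figure D4:**
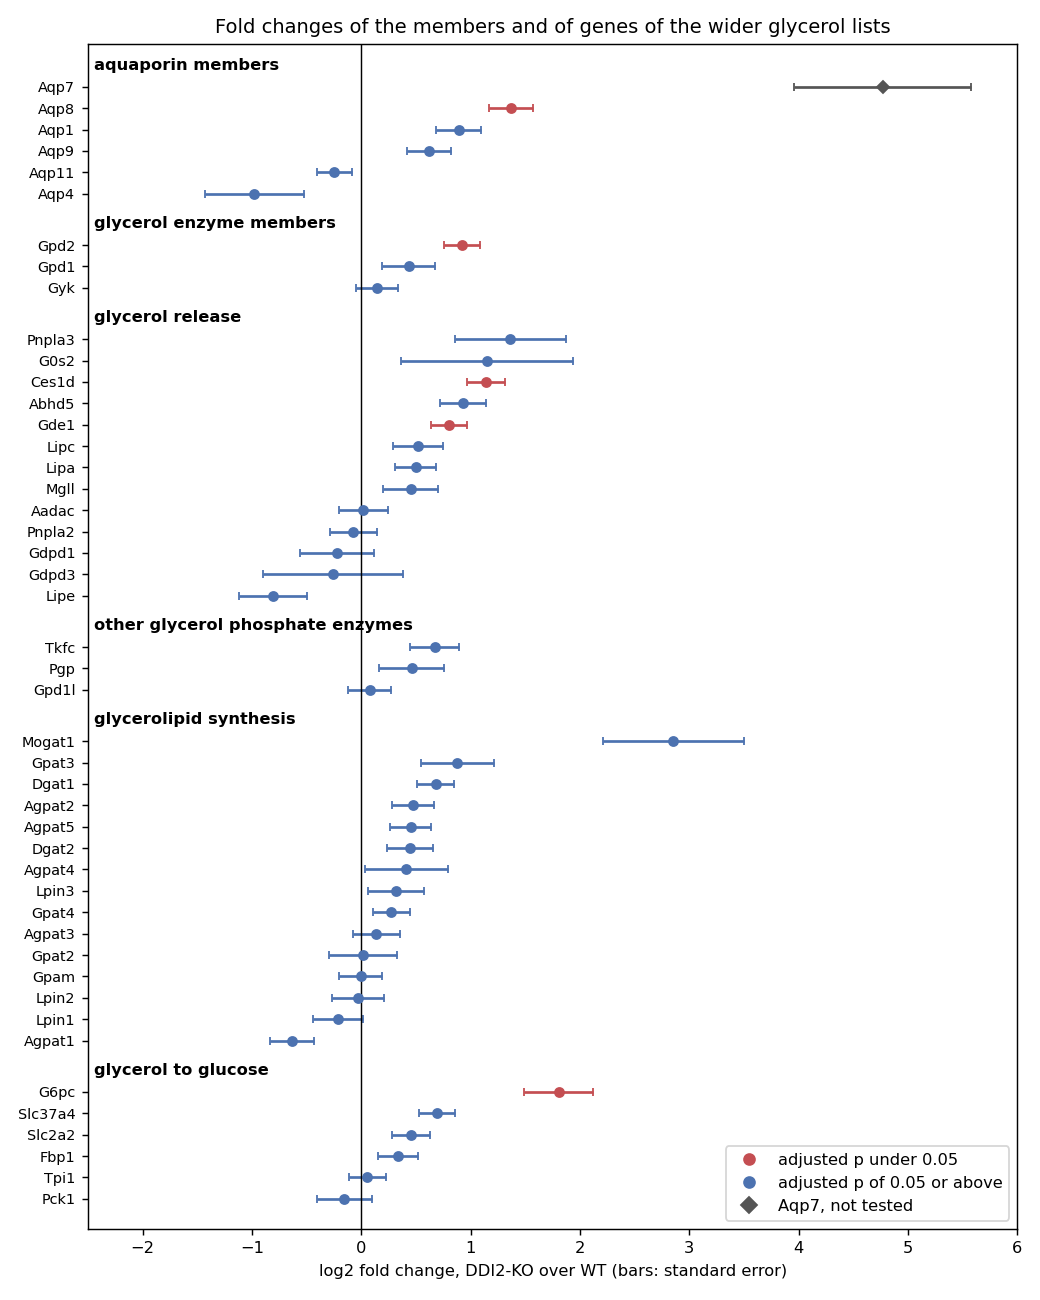
Log2 fold change, DDI2-KO over WT, with standard error, of the members and of genes of the wider glycerol lists, ordered by role, with genes at an adjusted p under 0.05 in red. Aqp8, Gpd2, Ces1d, Gde1 and G6pc are the red points, all right of 0, and the grey point of Aqp7, at 4.77, was not tested and depends on the small count the fit adds to low genes.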

How the data were processed

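Liver mRNA of 2 WT and 2 DDI2-KO mice had been sequenced from stranded poly(A) libraries. For each library the authors deposited one table of raw counts of reads per Ensembl gene, with no normalization. The submitters' processing notes name cutadapt 1.8, STAR 2.5.2b, HTSeq 0.6.1 and GRCm38. The strand setting of the counting and the annotation release are not given in the sources used here, so reads of overlapping antisense genes may not be separated. The 5 summary lines of each file were left out as genes. Reads with several places in the genome are not on the gene lines, so genes with close copies can be undercounted.

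Counts were tested with edgeR 4.0.16 in R 4.3.3 (TMM, filterByExpr, glmQLFit with robust estimation, glmQLFTest), comparing genotypes without a block, with Benjamini-Hochberg adjustment over 13699 genes and a threshold of 0.05. The study's limma test was an alternative (limma 3.58.1), as were DESeq2 1.42.0, other scalings and filters, a replicate block and leaving out each library. Standard errors were the size of the log2 fold change over the square root of F. RPKM used merged exon lengths of GENCODE M21, which named 48349 of the 48709 identifiers, and was described without a test. A level under 3 counts was taken as not detectable. Precision is limited by the 2 libraries per group, and for Aqp3 and Aqp7 by depth as well. Intervals cover counting error only.

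The members and lists were chosen with earlier results of these data known. Named are the members, the remaining aquaporins, genes of each list with an adjusted p under 0.05 and groups that do not overlap (otherwise the most abundant), the most abundant marker of each list, the neighbours of Aqp7, and Ddi2. Other list genes, among them Abhd5, Pnpla2, Lipe, Slc37a4, Pck1, Mogat1, Gpam and Ppara, were named for their role or value after their values were seen. Values of some single list genes are not reported here. Promoter windows are from RefSeq, GRCm38.p6.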

Additional observations from a re-analysis of the deposited data

How the results depend on the processing

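Aqp8 kept its call in 13 of 14 alternative settings, Gpd2 in 9, and the log2 fold change of every tested member kept its sign in all of them, except that of Gyk, which was -0.10 without DDI2-KO replicate 2 and up to 0.36 without another library (the cause was not tested). Beside the 346 genes called in edgeR, DESeq2 called 940, limma-voom 136, limma-trend 139, no filter on low counts 1544, no robust estimation 152 and the fits without 1 library 153 to 631, and the causes were not tested. Of the members other than Aqp7, 2 were called, but 1 under limma-voom, limma-trend and no robust estimation, 4 with no filter on low counts and 0 to 2 without 1 library, the 0 being without WT replicate 1. Of the wider glycerol list, 3 were called, but 6 under DESeq2, 9 with no filter on low counts and 2 to 3 without 1 library. With the replicate block the counts were 1108 genes, 3 members (Aqp1 was added, edgeR adjusted p = 0.0136) and 9 of the list. DESeq2 also called 3 of the members other than Aqp7 (Aqp1, Aqp8 and Gpd2). The labels give a replicate number and state no pairing. Deviations of same-numbered libraries had a correlation of 0.0465 across genes. With 1 such deviation per group, this value cannot decide whether the livers were paired. With upper-quartile factors, 126 genes were higher and 191 lower, against 182 and 164 with TMM, and with library totals 230 and 148. The scalings moved the median of all genes by under 0.1 on the log2 scale, from -0.068 to 0.034. Aqp3 had no fit, and Aqp7 did not pass the filter on a mean of 1 CPM. Depth limits Aqp3 and Aqp7, both counted in few reads.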

Other observations

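Regulators known to act on glycerol and gluconeogenic genes were read from a list of 16, all tested, whose median log2 fold change was -0.098. In edgeR 1 was called higher and 0 lower (2 and 2 at an unadjusted p under 0.05, 2 and 2 under DESeq2, and 0 under limma-voom and limma-trend). Over all 13699 tested genes, edgeR called 2.53%, 3216 had an unadjusted p under 0.05, and DESeq2 called 940. The gene that rose was Pparg, the nuclear receptor best known from fat cells, with 325 and 378 reads in WT, 565 and 525 in the DDI2-KO livers. Its groups did not overlap, at 10.95 ± 1.82 and 22.3 ± 0.719 CPM (SD, n = 2). The log2 fold change was 1.03 (SE 0.19, edgeR adjusted p = 0.0404), and the call was lost in 5 of 14 alternative settings, without WT replicate 1 or WT replicate 2 among them (adjusted p up to 0.196). Ppara, its relative in hepatocytes, came to 0.28 (adjusted p = 0.362), the coactivator Ppargc1a to -0.86 (adjusted p = 0.0650) and Hnf4a, the most abundant of the list, to 0.23 (adjusted p = 0.514).

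Of 20 known PPAR target genes, 1 was called higher and 0 lower in edgeR (7 and 2 at an unadjusted p under 0.05, 3 and 1 under DESeq2, and 1 and 0 under limma-voom and limma-trend). The same shares over all 13699 tested genes stand beside these counts, 2.53% called in edgeR, 3216 genes at an unadjusted p under 0.05 and 940 under DESeq2. Pdk4, the kinase that shuts down pyruvate dehydrogenase, had 228 and 214 reads in WT, 918 and 750 in the DDI2-KO livers. Both groups were tight and did not overlap, and the log2 fold change of 2.31 (SE 0.17, edgeR adjusted p = 0.00911) passed in all 14 alternative settings. Other genes, Aqp7 among them, hold 1.43% of its stretches of 50 bases. In the list as a whole, 15 genes had a log2 fold change above 0 and 5 below, with a median of 0.39. Over all tested genes, 48.7% were above 0 and the median was -0.015. DESeq2 called Ehhadh, Pdk4 and Plin2 higher and Cyp4a14 lower. Fabp1, its most abundant gene, came to -0.10 (adjusted p = 0.755), and Cyp4a14, a usual marker of PPAR alpha activity, had 27027 and 11050 reads in WT, 4239 and 5483 in the DDI2-KO livers, lower in both (log2 fold change -1.53, edgeR adjusted p = 0.105), a difference that passed under DESeq2 but not in edgeR or limma. Cidec, a lipid droplet protein, had 9 and 8 reads in WT, 29 and 19 in the DDI2-KO livers (log2 fold change 1.87, adjusted p = 0.0729). Ehhadh, Plin2, Cyp4a14 and Cidec are named after their values were seen.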
